A study of Mus musculus with 4 samples.

Results

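MHC class II-high macrophages without Cd209a made up 700 of 10599 barcodes in the joints of mice 1, 2 and 5 days after an arthritis-inducing serum. They numbered 290 of 4642 barcodes at day 1 (6.25%, 5.57–6.98), 157 of 2722 at day 2 (5.77%, 4.92–6.71) and 253 of 3235 at day 5 (7.82%, 6.92–8.80). Ranges in parentheses are exact 95% intervals throughout and cover counting error only. Members were chosen by measured UMIs (unique molecular identifiers, counted transcripts). A barcode, which stands for 1 captured cell, was taken when H2-Aa, H2-Ab1, H2-Eb1 and Cd74 together held at least 1% of its UMIs. It also had to hold no Cd209a UMI, at least 1 C1qa UMI, at most 1 Sparc and at most 1 Plac8 UMI, and under 5 UMIs of Aqp1 and Fxyd2 together. All barcodes considered had at least 500 genes and under 10% mitochondrial UMIs. Barcodes that met every clause except the MHC class II one served as the main comparison and are called MHC class II-low macrophages. There were 883, 444 and 507 of them at days 1, 2 and 5.

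Cells came from hind paw synovium, the tissue lining the joint, sorted as CD45+CD11b+Ly6G-, a gate for myeloid cells that leaves out neutrophils. All groups carried the Cx3cr1creER:tdTomato alleles, so that tamoxifen activates a heritable red reporter, tdTomato, in whichever cells are using the Cx3cr1 promoter when it is given. Tamoxifen was given in 2 doses at 4 mg/ml within 48 h, 4 weeks before serum. Arthritis was started with K/BxN serum, whose autoantibodies cause joint inflammation, and the day 0 cells were from mice without it. Each day was 1 library with 17400 cells loaded, and the labels used here do not say how many mice entered it or their age or sex. Day and library therefore cannot be told apart, and days were compared without a test. Groups were compared within each library, also without a test, and the 3 days are different time points and not replicates.

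Libraries of days 1 to 5 held 2756 to 4674 barcodes, with median depths of 3594 to 4158.5 UMIs. The day 0 library stood apart, with a median of 832 UMIs over 7542 barcodes, and was left out of the comparisons. Of the barcodes that passed, 52 had a sequence that occurred in a pair of libraries, and 6 of these were members. None of the 6 was shared with another member.

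MHC class II molecules are pairs of an alpha and a beta chain that carry peptides from engulfed material to the cell surface, where CD4+ T cells read them. Cd74, the invariant chain, holds the peptide groove during transport, H2-M (encoded by H2-DMa, H2-DMb1 and H2-DMb2) loads the peptide, and H2-O (H2-Oa, H2-Ob) restrains H2-M. The transactivator Ciita switches the whole set on. In the synovium, macrophages with high MHC class II lie among macrophages without it and beside dendritic cells, which also carry it. Cd209a is a lectin gene of monocyte-derived and conventional dendritic cells.

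Ciita acts through promoter elements shared by the class II genes, one of which, the Y box, contains an inverted CCAAT sequence. The 150 bases before the annotated start are shown for 3 genes whose levels are described here, picked among genes that hold the marked sequence there. They are from RefSeq (GRCm38.p6), 5′ to 3′ on the gene's strand, and capitals mark GATTGG or its reverse complement CCAATC. H2-Aa is on the minus strand at chr17:34287824-34287973, and its match begins 49 bases before the start. H2-Eb1 (chr17:34305717-34305866) has a match at 60 bases and a reverse-strand match at 35 bases, and H2-DMb1 (chr17:34153041-34153190) has a match at 62 bases, both on the plus strand.
H2-Aa: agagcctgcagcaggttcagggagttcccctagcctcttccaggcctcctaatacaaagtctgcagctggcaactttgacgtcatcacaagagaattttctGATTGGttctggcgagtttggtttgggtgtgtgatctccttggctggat
H2-Eb1: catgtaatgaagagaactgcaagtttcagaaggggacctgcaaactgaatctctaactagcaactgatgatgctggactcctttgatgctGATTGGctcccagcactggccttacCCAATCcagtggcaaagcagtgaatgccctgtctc
H2-DMb1: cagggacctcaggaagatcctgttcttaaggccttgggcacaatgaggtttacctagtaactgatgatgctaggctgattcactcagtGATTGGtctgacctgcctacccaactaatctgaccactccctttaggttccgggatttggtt

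Of 8 class II genes looked up, 7 had an entry, with 8 windows of 300 bases from 250 before the start to 50 after. A match on either strand was in 7 of these 8 windows, and in 5292 of all 32851 windows (16.1%). A match describes the letters and is no evidence of binding.

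The rule fixed the MHC class II levels of the members, which are given as a description. The median share of the 4 genes was 5.70% at day 1, 5.86% at day 2 and 4.17% at day 5 in members, against 0.0418%, 0.0629% and 0.0578% in MHC class II-low macrophages. Single members reached 18.4%, 28.2% and 28.4%. The lowest members lay at 1.05%, 1.01% and 1.05%, and the highest MHC class II-low barcodes at 0.996%, 0.997% and 0.997%. Few barcodes lay close to the limit. Between 1% and 1.2% there were 8, 6 and 17 members, and between 0.8% and 1% there were 18, 10 and 19 MHC class II-low barcodes.

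**Figure D1:**
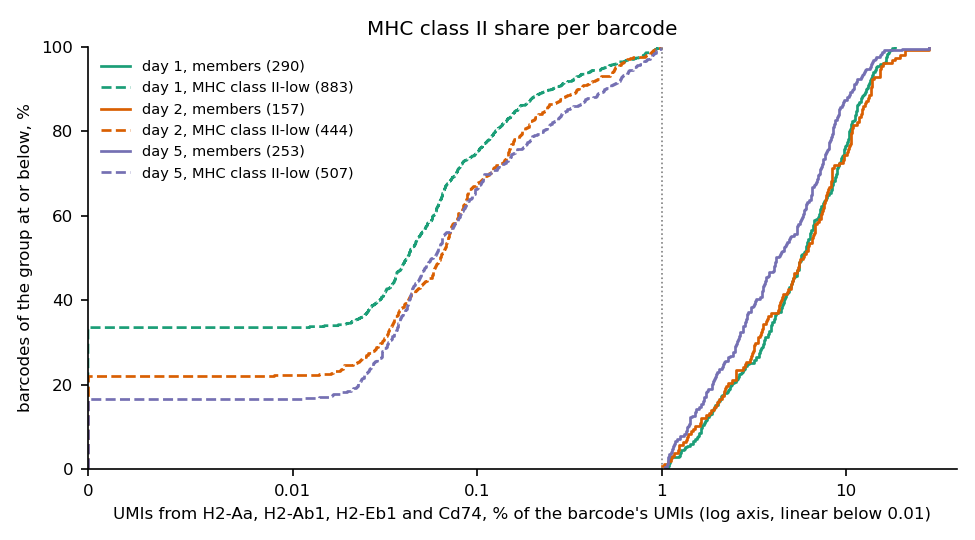
Cumulative share of barcodes (y axis, %) at or below a given percentage of UMIs from H2-Aa, H2-Ab1, H2-Eb1 and Cd74 (x axis, log scale above 0.01), with members as solid and MHC class II-low macrophages as dashed lines for each day. The dotted line is the 1% limit that separates the groups by construction, and member medians lie at 5.70%, 5.86% and 4.17%.

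In CPM (a gene's UMIs scaled to a common total of all UMIs) summed over the members of a day, H2-Aa stood at 10743, 10846 and 9522 at days 1, 2 and 5. H2-Ab1 stood at 12302, 11812 and 11018, H2-Eb1 at 7799, 7768 and 6502, and Cd74 at 36682, 37589 and 28391. All 4 were lowest at day 5. C1qa, a complement gene of tissue macrophages that the rule required, had a median of 14, 18 and 10 UMIs per member. Members with only 1 to 3 C1qa UMIs numbered 46, 11 and 75.

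Genes the rule did not use are given as a description of the label. The rule required a C1qa UMI, which sets part of the level of macrophage genes, C1qb above all. Members held the macrophage genes C1qb (5512, 6867 and 3802 CPM at days 1, 2 and 5), Csf1r, the receptor for the growth factor CSF1 (715, 768 and 532 CPM), Adgre1, which encodes F4/80 (257, 302 and 212 CPM), and Mertk, a receptor for dying cells (22.4, 28.1 and 18.7 CPM). Mmp12, a macrophage elastase given as a marker of these cells, did not mark them as a group. It had UMIs in 9 of 290, 9 of 157 and 14 of 253 members. Its summed levels were 110, 70.1 and 28.1 CPM, of which 1 barcode gave 79.6%, 47.5% and 33.3%, and without that barcode they were 22.6, 37.8 and 18.9 CPM.

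Markers of T and NK cells, neutrophils, mast cells, endothelial cells, fibroblasts and B cells summed to at most 244 CPM per list in members on any day. Summed over each list in members at days 1, 2 and 5, T and NK cell genes reached 16, 24.5 and 35.6 CPM, neutrophil genes 8.54, 5.26 and 57.1 CPM, and endothelial genes 3.2, 3.51 and 2.81 CPM. Some of these lists were poorly covered, since the files hold 1, 2 and 2 of 8 T and NK cell genes and 2, 0 and 2 of 6 mast cell genes. The mast cell genes present summed to 0 CPM at day 1 and 3.74 CPM at day 5. Fibroblast genes stood at 72.6, 119 and 69.3 CPM against 59.3, 98.9 and 215 CPM in MHC class II-low macrophages. B cell genes stood at 243, 244 and 153 CPM against 254, 212 and 133 CPM, and 217, 125 and 156 of their UMIs in members were from Ighm, the IgM heavy chain, while Cd79a had 1 UMI at day 1 and 0 at day 5. Il7r gave 15, 13 and 38 UMIs, nearly all of the T and NK cell list. Dendritic cell genes summed to 1497, 1583 and 1344 CPM in members against 661, 632 and 498 CPM. Monocyte genes summed to 7416, 6471 and 8367 CPM against 7256, 5749 and 9003 CPM. Most of this came from S100a6 (4768, 4131 and 4799 CPM in members) and S100a4 (1656, 1506 and 2037 CPM), which many macrophages also express.

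Some results changed when members with an Mgl2, Flt3 or Ccr7 UMI were left out, while the MHC class II-low group was kept as it was. That also left fewer members and fewer UMIs to count, and the effect of these lower numbers was not told apart. Without the barcodes that held an Mgl2, Flt3 or Ccr7 UMI, members were 2.24%, 1.69% and 4.85% of barcodes at days 1, 2 and 5 in place of 6.25%, 5.77% and 7.82%. The ratio to MHC class II-low macrophages at day 2 was then 5.55 in place of 10.6 for H2-DMa, 8.38 in place of 13.6 for H2-DMb1, 6.61 in place of 14.6 for Ccr2 and 1.72 in place of 8.61 for the lectin gene Clec4b1. Of the single-gene ratios recomputed in this way, 66 stayed within their counting interval, 68 moved outside it and 6 reversed, of which 3 were those of Mgl2 itself.

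Members had higher MHC class II loading genes, Ccr2, Mgl2 and Il1b than MHC class II-low macrophages of the same day, and lower genes of resident interstitial macrophages such as Lyve1, Folr2 and F13a1. The groups were split by class II genes, and Ciita switches on the loading genes with them. The rule therefore sets part of the direction of the loading genes and Ciita, which are given as a description. Of 7612, 7558 and 7582 genes measured (at least 10 CPM in either group) at days 1, 2 and 5, 295 (3.88%), 336 (4.45%) and 203 (2.68%) were at least 2-fold higher in members, and 622 (8.17%), 728 (9.63%) and 434 (5.72%) at least 2-fold lower. The counts depended on the barcodes and on counting error. Without Mgl2, Flt3 or Ccr7 barcodes, 458 and 680 genes were higher and 948 and 1104 lower at days 1 and 2. At day 2, 202 of the higher and 371 of the lower genes had an interval that leaves out 1. The median gene lay at -0.16, -0.13 and -0.14 on the log2 scale, so that all ratios below sit on a small downward shift. Median depths were 2786.5, 3413 and 3779 UMIs in members against 2406, 2783.5 and 3207 UMIs.

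Among 12 MHC class II accessory genes, 10, 10 and 9 were measured, of which 5, 5 and 4 were at least 2-fold higher in members and 1, 1 and 0 at least 2-fold lower. The list's median log2 ratio was 1.11, 1.01 and 0.22, and it was not stable at days 1 and 2. At day 1 it was -0.10 with at least 3 C1qa UMIs required, -0.12 with no CPM minimum and 0.058 without Mgl2, Flt3 or Ccr7 barcodes, and at day 2 it was 0.051 with an MHC class II limit of 0.5%. H2-DMa was at 1071, 1003 and 847 CPM in members and 102, 94.5 and 97.8 CPM in MHC class II-low macrophages, 10.5-fold (9.11–12.1), 10.6-fold (8.75–13) and 8.66-fold (7.43–10.1) higher. H2-DMb1 was at 838, 828 and 650 CPM against 68.1, 61.0 and 69.5 CPM, or 12.3-fold (10.4–14.7), 13.6-fold (10.7–17.4) and 9.35-fold (7.80–11.3) higher. For both loading genes the gap was narrowest at day 5.

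H2-DMb2, the second beta chain of H2-M, was lower in level, at 32.0, 17.5 and 52.4 CPM against 5.08, 3.72 and 3.83 CPM. Ciita was counted 16, 12 and 19 times in members and 3, 2 and 3 times in MHC class II-low macrophages, which gives ratios of 13.5 (3.85–72.1), 14.1 (3.15–130) and 12.4 (3.64–65.3). H2-Ob had 14, 6 and 6 UMIs in members and 7, 4 and 6 in the other group. H2-Oa was nearly absent, with 1, 0 and 6 UMIs in members and 0 on each day in MHC class II-low macrophages. The lysosomal proteases that cut antigen did not follow the class II genes: Ctss had ratios of 0.919, 1.15 and 1.17, Ctsd of 0.442, 0.637 and 0.598, and Ctsl of 0.518, 0.496 and 0.592.

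MHC class I and its peptide supply did not separate the groups, since 0 of 12 genes were 2-fold higher or lower on any day (medians 0.07, 0.02 and 0.28 on the log2 scale). Of 10 costimulation and checkpoint genes, 7, 8 and 8 were measured, of which 2, 3 and 3 were at least 2-fold higher in members. Tnfsf9, the ligand of the T cell receptor 4-1BB, was at 70.5, 168 and 72.1 CPM, 4.50-fold (2.96–6.92), 4.53-fold (3.18–6.51) and 2.68-fold (1.88–3.86) higher. Icosl, the ligand of ICOS, had ratios of 2.13 (1.15–3.92), 2.36 (0.829–6.70) and 4.34 (1.89–10.8). Cd86 was not higher in members at days 1 and 2 (ratios 0.654 and 0.598) and had a ratio of 1.11 (0.859–1.43) at day 5. Cd40 was lower at day 1, with a ratio of 0.386 (0.245–0.585).

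**Figure D2:**
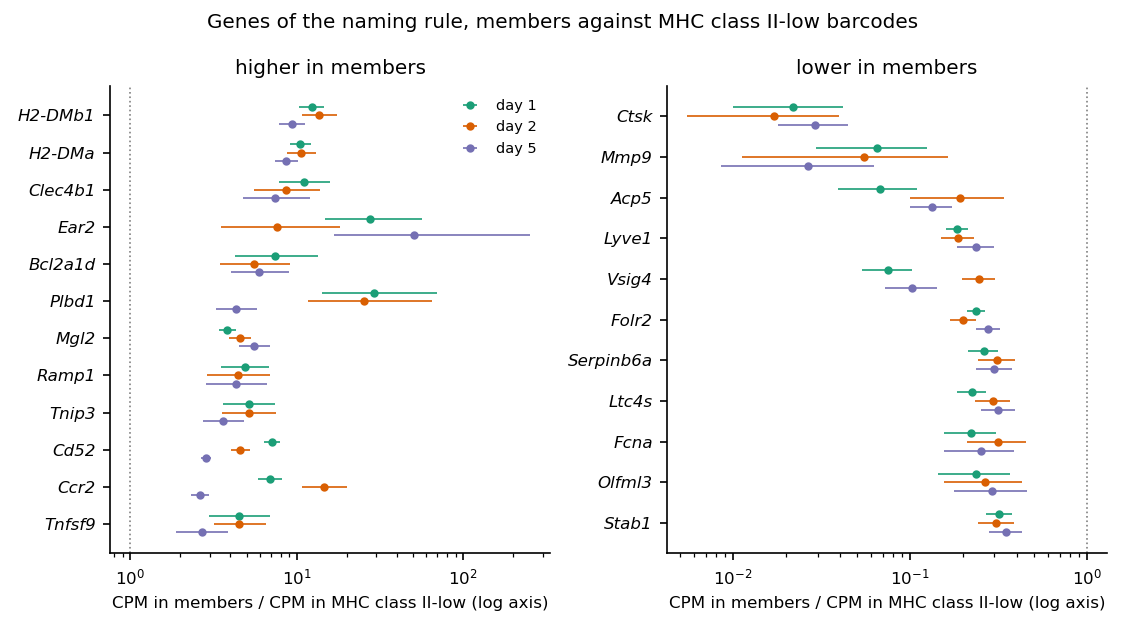
Ratio of summed CPM in members to that in MHC class II-low macrophages (x axes, log scale) for 12 higher and 11 lower genes of the naming rule, with 1 point per day and exact 95% counting intervals. H2-DMb1 lies between 9.35 and 13.6, and Ctsk, Mmp9 and Acp5 at the top of the right panel rest on few MHC class II-low barcodes.

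Mgl2 (CD301b), a galactose-binding lectin of dermal dendritic cells and of some macrophages, was at 784, 893 and 313 CPM in members and 204, 196 and 56.1 CPM in MHC class II-low macrophages. It was 3.83-fold (3.41–4.31), 4.55-fold (3.91–5.29) and 5.57-fold (4.50–6.94) higher. Members with an Mgl2 UMI were 63.8%, 69.4% and 32.8% of the group, or 50.4%, 51.1% and 24.5% after thinning each barcode to 1500 UMIs. The same shares were 29.4%, 26.1% and 12.4% unthinned in MHC class II-low macrophages. As a background, they were 8.99%, 11.2% and 4.41% in barcodes with at least 2 Sparc UMIs. Mgl2 was therefore present in many members at days 1 and 2 and in fewer at day 5.

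Ccr2, the receptor that draws monocytes out of the blood, was at 592, 542 and 600 CPM in members against 85.9, 37.2 and 228 CPM, with ratios of 6.88 (5.85–8.13), 14.6 (10.8–20.1) and 2.63 (2.33–2.97). The level in members was nearly the same on each day, and it was the MHC class II-low group that differed between days. Cd52, a small surface glycoprotein of leukocytes, had 1299, 1199 and 2110 CPM and ratios of 7.12, 4.57 and 2.85. Clec4b1, a C-type lectin, had 195, 167 and 92.7 CPM and ratios of 11, 8.61 and 7.44. Plbd1, a phospholipase-like lysosomal protein, had 98.2, 132 and 156 CPM and ratios of 29.0, 25.3 and 4.35.

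The other genes named by the rule were Ear2, a secreted ribonuclease, Bcl2a1d, a survival gene, Ramp1, part of the receptor for the neuropeptide CGRP, and Tnip3, a brake on NF-kB. Ear2 stood at 128, 50.9 and 73.0 CPM in members and was counted 11, 9 and 3 times in MHC class II-low macrophages. Its ratios were 27.5 (14.8–56.6), 7.60 (3.5–18.2) and 50.8 (16.7–252). Without Mgl2, Flt3 or Ccr7 barcodes the Ear2 ratio was 2.98 at day 2 and 5.28 at day 5. At day 2 it was 30.4 with at least 3 C1qa UMIs and 18.7 with the rule applied after thinning. Bcl2a1d ratios were 7.43, 5.53 and 5.97, Ramp1 ratios 4.87, 4.45 and 4.31, and Tnip3 ratios 5.15, 5.14 and 3.61. Ear2 and Bcl2a1d have near-identical copies, so that their counts may be split among copies.

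Among 18 dendritic cell genes, 10, 9 and 12 were measured, of which 6, 5 and 9 were at least 2-fold higher in members and 0 at least 2-fold lower. The list's median log2 ratio was 1.71, 1.46 and 1.58, and 1.12, 0.20 and 0.45 without Mgl2, Flt3 or Ccr7 barcodes. Mgl2, Flt3 and Ccr7 are on this list, so leaving out such members sets part of that fall by construction. Napsa, an aspartic protease, was at 150, 135 and 196 CPM with ratios of 11.4 (7.68–17.4), 7.26 (4.57–11.9) and 2.47 (2.01–3.05). Itgax, which encodes CD11c, had 30, 26 and 56 UMIs against 4, 11 and 4. Defining genes were rare. Flt3, the growth factor receptor of dendritic cells, had 5, 3 and 16 UMIs in members, Zbtb46, their transcription factor, had 3, 0 and 2, and Ccr7, which guides migration to lymph nodes, had 0 at day 1 and 21 at day 5.

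Il1b, the inflammatory cytokine, was at 168, 275 and 1176 CPM in members against 29.2, 40.9 and 596 CPM in MHC class II-low macrophages, with ratios of 5.74 (4.30–7.73), 6.73 (4.92–9.32) and 1.97 (1.82–2.14). Retnla, a gene induced by interleukin-4 signalling, was at 3004, 2111 and 1579 CPM against 2323, 1255 and 766 CPM, with ratios of 1.29 (1.24–1.35), 1.68 (1.56–1.81) and 2.06 (1.92–2.21). Cxcl2, a neutrophil-attracting chemokine, had ratios of 2.13 (1.96–2.32), 1.79 (1.66–1.94) and 0.794 (0.752–0.839), so that the order of the groups turned at day 5. Of 12, 10 and 14 cell cycle genes measured, 6, 0 and 0 were at least 2-fold higher in members and 0, 3 and 6 at least 2-fold lower. At day 2 the direction depended on the rule, since the list's median log2 ratio of -0.22 became 1.05 with an MHC class II limit of 0.5% and 0.94 with the rule applied after thinning. Stmn1, a microtubule regulator of dividing cells, had ratios of 5.39 (3.99–7.36), 1.12 (0.694–1.77) and 0.717 (0.588–0.869).

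Of 14 interstitial macrophage genes, 14, 14 and 13 were measured, of which 9, 12 and 8 were at least 2-fold lower in members and 0, 0 and 1 at least 2-fold higher. The median log2 ratio was -1.52, -1.67 and -1.16. Lyve1, a hyaluronan receptor, was at 232, 174 and 74.9 CPM in members against 1256, 931 and 316 CPM, 5.42-fold (4.72–6.25), 5.36-fold (4.37–6.65) and 4.22-fold (3.35–5.40) lower. Folr2, a folate receptor, was at 331, 258 and 164 CPM against 1409, 1292 and 593 CPM, 4.26-fold (3.79–4.8), 5.01-fold (4.23–5.97) and 3.62-fold (3.09–4.27) lower. F13a1, the A chain of coagulation factor XIII, was at 490, 342 and 273 CPM against 1685, 1141 and 610 CPM. Both groups had less Lyve1, Folr2 and F13a1 at day 5 than at day 1.

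Lining macrophage genes gave 4 of 10, 4 of 9 and 4 of 10 at least 2-fold lower in members, with 1, 1 and 2 at least 2-fold higher. Vsig4, a complement receptor, was at 44.8, 168 and 35.6 CPM against 598, 689 and 347 CPM, 13.3-fold (9.81–18.6), 4.09-fold (3.31–5.10) and 9.74-fold (7.03–13.9) lower. Timd4, a receptor for dying cells found on long-lived macrophages, was 4.78-fold (2.91–8.37), 5.99-fold (2.94–14.2) and 5.31-fold (2.57–12.7) lower. Serpinb6a (a protease inhibitor), Ltc4s (leukotriene C4 synthase), Fcna (ficolin A), Olfml3 and Stab1 (a scavenger receptor) were further lower genes of the rule. Serpinb6a was 3.84-fold, 3.23-fold and 3.34-fold lower, Ltc4s 4.49-fold, 3.40-fold and 3.18-fold lower, and Stab1 3.14-fold, 3.26-fold and 2.88-fold lower.

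The general macrophage genes differed less. Of 14 identity genes, 2, 2 and 0 were at least 2-fold lower in members and 0 at least 2-fold higher (median log2 ratio -0.65, -0.51 and -0.22). Csf1r was 1.80-fold (1.66–1.96), 1.56-fold (1.40–1.74) and 1.3-fold (1.18–1.44) lower, and Mrc1, the mannose receptor, 2.04-fold, 1.90-fold and 1.58-fold lower. C1qb had ratios of 0.806, 0.927 and 1.05. The high-affinity antibody receptor Fcgr1 was level, with ratios of 0.995, 1.00 and 1.13.

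The bone-resorption genes Ctsk (cathepsin K), Mmp9 and Acp5 were also lower genes of the rule, and their values rest on few barcodes. Ctsk was at 9.61, 8.77 and 19.7 CPM in members against 439, 516 and 674 CPM, 45.7-fold, 58.8-fold and 34.3-fold lower. Without the barcode with most Ctsk UMIs in each group it was 24.0-fold, 40.6-fold and 33.7-fold lower. Mmp9 was 15.4-fold, 18.2-fold and 37.6-fold lower with all barcodes, and 9.68-fold and 2.14-fold lower at days 1 and 2 without the top barcode, which held 51.0%, 96.1% and 27.8% of the Mmp9 UMIs of MHC class II-low macrophages. At day 5 Mmp9 was 137-fold lower without the top barcode of each group, which left 1 Mmp9 UMI in members. Mmp9 was higher in members, with a ratio of 4.24, at day 1 under a mitochondrial limit of 5%, and with a ratio of 1.43 at day 2 without the 5% of barcodes with most UMIs. Acp5 was 14.8-fold, 5.19-fold and 7.53-fold lower, and 7.61-fold, 1.66-fold and 7.61-fold lower without it. At day 2 the MHC class II limit also decided these genes, since at a limit of 0.5% all 3 were higher in members.

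Against all other passing barcodes of the day, 216 of 7535 genes (2.87%), 288 of 7547 (3.82%) and 98 of 7439 (1.32%) were at least 2-fold higher in members at days 1, 2 and 5, and 554 (7.35%), 718 (9.51%) and 379 (5.09%) at least 2-fold lower. H2-DMb1 was 4.17-fold (3.86–4.51), 5.51-fold (4.97–6.11) and 2.50-fold (2.3–2.72) higher, and Mgl2 2.49-fold (2.3–2.69), 4.14-fold (3.76–4.56) and 2.29-fold (2.03–2.57) higher. Ccr2 had ratios of 4.76 (4.33–5.23), 5.81 (5.11–6.60) and 1.73 (1.59–1.88). Napsa was higher in members at days 1 and 2 (ratios 2.37 and 2.97) and had a ratio of 0.9 (0.779–1.04) at day 5. The other barcodes at day 5 included 626 with at least 2 Plac8 UMIs, a monocyte gene, against 43 and 37 at days 1 and 2.

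The members' neighbours by the rule were 349, 141 and 209 barcodes with the same MHC class II limit and at least 1 Cd209a UMI. These had median MHC class II shares of 9.04%, 8.12% and 9.88% and median depths of 4346, 4851 and 4539 UMIs, deeper than the members. Of these, 108, 47 and 51 held a single Cd209a UMI, so that the border between the groups depends on depth. The C1qa, Sparc, Plac8, Aqp1 and Fxyd2 clauses were not applied to the Cd209a barcodes. How many of them would otherwise be members was not counted. Members were at least 2-fold higher for 245 of 7343 genes (3.34%), 434 of 7597 (5.71%) and 494 of 7376 (6.7%), and at least 2-fold lower for 339 (4.62%), 704 (9.27%) and 435 (5.9%).

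Members had to hold a C1qa UMI, whereas 67.9%, 81.6% and 48.8% of the Cd209a barcodes held one, so the rule sets part of the direction of macrophage genes here and they are given as a description. Of 14 identity genes, 4, 3 and 9 were at least 2-fold higher and 0 at least 2-fold lower (median log2 ratio 0.69, 0.72 and 1.08). C1qb was 2.42-fold (2.32–2.52), 2.06-fold (1.96–2.16) and 3.81-fold (3.56–4.08) higher, and Fcgr1 3.02-fold (2.12–4.35), 2.50-fold (1.65–3.84) and 2.03-fold (1.55–2.69) higher. Ms4a7, a membrane protein of macrophages, was at 346, 595 and 730 CPM against 112, 210 and 99.5 CPM. Lpl (lipoprotein lipase) had ratios of 3.31, 3.39 and 3.27, Apobec1 (an RNA-editing enzyme) 3.84, 3.19 and 3.59, C5ar1 (the C5a receptor) 2.77, 2.77 and 5.73, Pld3 2.88, 3.40 and 5.35, and Cxcl2 3.5, 2.6 and 5.74.

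Dendritic cell genes were lower in members than in the Cd209a barcodes, with 6 of 13, 6 of 13 and 9 of 15 measured at least 2-fold lower and 1 on each day at least 2-fold higher. The groups were split by Cd209a, itself a dendritic cell gene, and members had to hold C1qa. The rule thus sets part of the direction of dendritic cell genes and of Cd209d, and they too are given as a description. Flt3 was counted 5, 3 and 16 times in members against 66, 21 and 62 times. Klrd1 (CD94) was at 23.5, 5.26 and 28.1 CPM against 136, 91.4 and 314 CPM, and was counted 3 times in members at day 2. Cd209d, a relative of Cd209a, was 3.82-fold, 7.04-fold and 10.5-fold lower, Jaml, an adhesion molecule, 15.3-fold, 5.34-fold and 8.18-fold lower, and Itgb7, an integrin chain, 4.02-fold, 3.87-fold and 5.65-fold lower. Ms4a4c was 3.57-fold, 7.26-fold and 3.26-fold lower and Cox6b2 7.56-fold, 3.75-fold and 4.34-fold lower. The class II loading gene H2-DMb1 was also lower in members, with ratios of 0.662, 0.718 and 0.469. Ccr2 was level, with ratios of 0.922 (0.831–1.02), 0.927 (0.799–1.07) and 1.00 (0.896–1.12). Inflammatory mediator genes were not higher in members as a list. They summed to 489, 638 and 1729 CPM in members against 492, 637 and 2054 CPM in the Cd209a barcodes.

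Members varied among themselves along their MHC class II share, which was split at 2%, 4% and 8%. The 4 parts held 44, 57, 87 and 102 members at day 1, 24, 34, 45 and 54 at day 2, and 58, 60, 74 and 61 at day 5. H2-DMb1 stood at 276, 452, 732 and 1348 CPM from the lowest to the highest part at day 1. Mgl2 stood at 610, 365, 577 and 1237 CPM at day 1, 314, 383, 609 and 1696 CPM at day 2, and 69.9, 200, 287 and 658 CPM at day 5. On each day, members of at least 8% had the most Mgl2.

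Ccr2 followed the share at day 1, with 225, 388, 619 and 819 CPM, and hardly at day 5, with 590, 554, 616 and 636 CPM. The interstitial gene F13a1 ran the other way, with 1111, 724, 436 and 167 CPM at day 1, 586, 430, 340 and 178 CPM at day 2, and 415, 339, 283 and 77.7 CPM at day 5. Folr2 stood at 828, 463, 285 and 102 CPM at day 1. C1qb had no such order, with 6601, 5623, 4850 and 5569 CPM at day 1. Over single members, the MHC class II share and total UMIs had a Spearman correlation of 0.11, 0.08 and 0.09, and the share and the Mgl2 share 0.28, 0.51 and 0.33. All these points share a library, and part of each percentage's total.

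**Figure D3:**
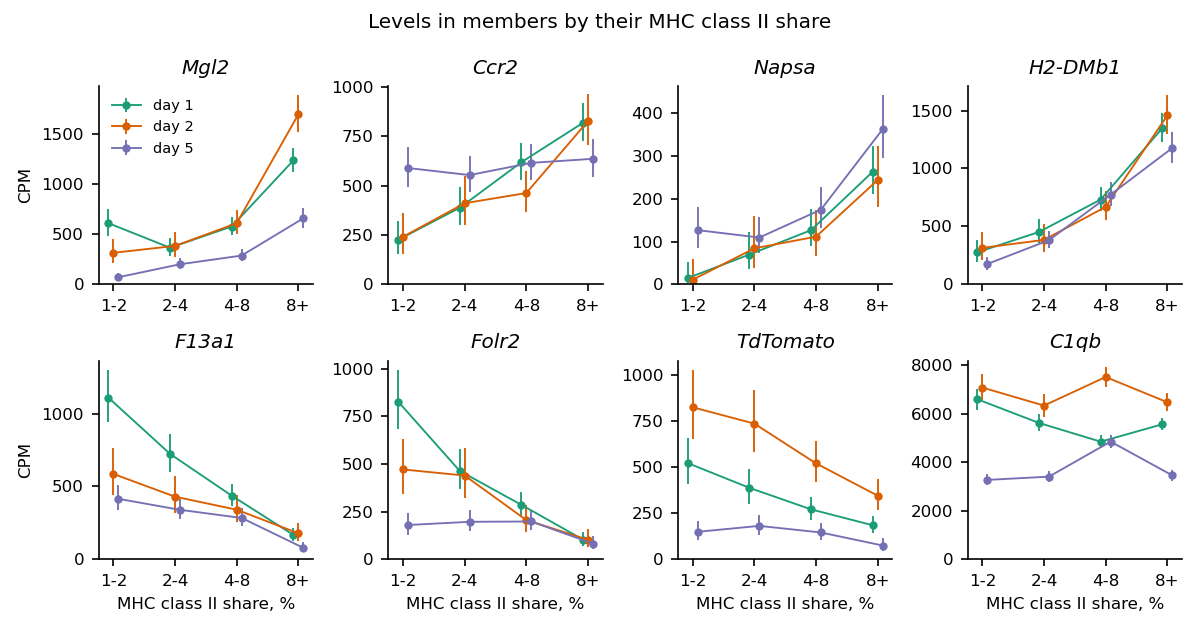
Summed CPM (y axes) of 8 genes in members split by MHC class II share (x axes, %), with 1 line per day and exact Poisson 95% intervals. Mgl2, Napsa and H2-DMb1 are highest in the part of at least 8% on each day, F13a1 is lowest there, and C1qb has no steady order.

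Members also varied by their number of C1qa UMIs. Members with 1 to 3, 4 to 15 and at least 16 C1qa UMIs numbered 46, 123 and 121 at day 1, and 75, 90 and 88 at day 5. A further 37, 14 and 192 barcodes at days 1, 2 and 5 met the MHC class II and Cd209a clauses but had no C1qa UMI. The Sparc, Plac8, Aqp1 and Fxyd2 clauses were not applied to them, so they can include cells that the rule sets apart. Csf1r stood at 303, 548 and 717 CPM in the 3 member parts at day 5 and at 290 CPM in the barcodes without C1qa. Il1b stood at 2326, 1115 and 224 CPM, and at 2384 CPM in those without. Napsa stood at 354, 140 and 109 CPM, and at 449 CPM. At day 5, members with 1 to 3 C1qa UMIs thus had Csf1r, Il1b and Napsa levels nearer to the barcodes without C1qa than to members with at least 16. All 16 Flt3 UMIs at day 5 lay in members with under 16 C1qa UMIs, 11 of them in those with 1 to 3.

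TdTomato, the transcript of the tamoxifen-induced reporter, was at 298 (264–335), 552 (493–617) and 137 (115–161) CPM in members at days 1, 2 and 5. It was at 482, 670 and 247 CPM in MHC class II-low macrophages, so that the ratio was 0.618, 0.824 and 0.553. Members with a TdTomato UMI were 36.9%, 55.4% and 24.9% of the group, or 27.2%, 45.0% and 15.8% at 1500 UMIs. In barcodes with at least 2 Sparc UMIs, a lining macrophage gene, TdTomato was at 1106, 1215 and 1116 CPM and was found in 88.7%, 91.6% and 92.3% of barcodes (72.8%, 75.3% and 73.8% at 1500 UMIs). In barcodes with at least 2 Plac8 UMIs, TdTomato was at 124, 242 and 91.4 CPM, a level from which free RNA and reporter in the cell cannot be told apart. Members thus lay between these groups, nearer to the Plac8 barcodes on each day.

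Within members, TdTomato was lower at higher MHC class II share, with 523, 388, 271 and 184 CPM over the 4 parts at day 1 and 827, 738, 521 and 345 CPM at day 2. At day 5 the 4 values for TdTomato were 149, 181, 145 and 74.0 CPM. Cx3cr1, whose promoter drives the recombinase, was at 101 (82.1–124), 96.4 (72.7–126) and 76.7 (61.0–95.3) CPM in members and 303, 337 and 325 CPM in the Sparc barcodes. Cx3cr1 RNA on the day of harvest does not show whether a cell used the promoter when tamoxifen was given.

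**Figure D4:**
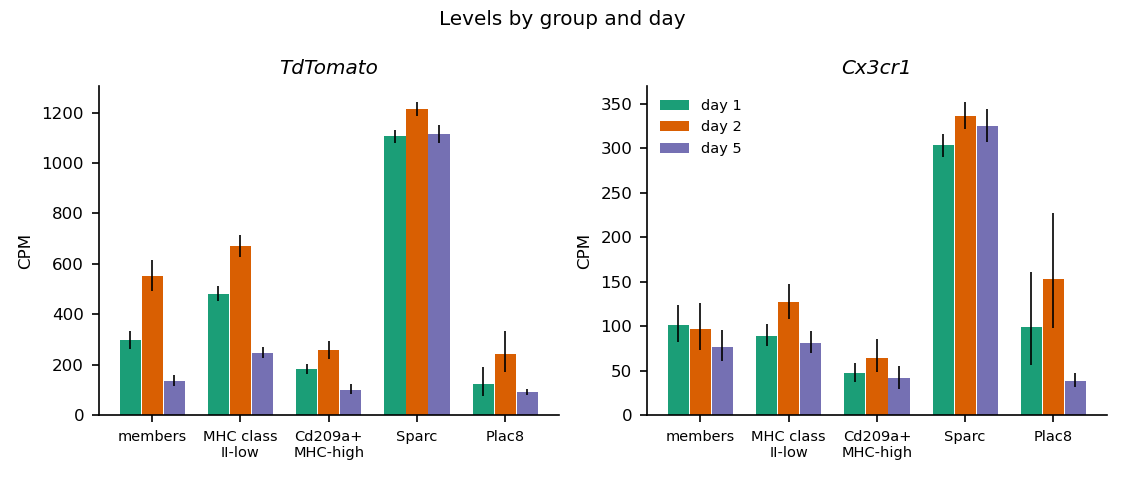
Summed CPM of TdTomato and Cx3cr1 (y axes) by group and day, with exact Poisson 95% intervals as error bars. Members hold 298, 552 and 137 CPM of TdTomato at days 1, 2 and 5, below the MHC class II-low macrophages and far below the Sparc barcodes on each day.

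At day 2 members had more Ccl2, a monocyte-attracting chemokine, and Vsig4 than at day 1. In all, 315 of 7384 genes (4.27%) were at least 2-fold higher than at day 1 and 463 (6.27%) at least 2-fold lower, against 82 (1.09%) and 98 (1.31%) of 7500 in the larger group of MHC class II-low macrophages. Without Mgl2, Flt3 or Ccr7 barcodes the counts in members were 1067 and 885. Ccl2 went from 295 to 807 CPM, 2.74-fold (2.35–3.19), beside 1.98-fold (1.79–2.18) in MHC class II-low macrophages. Ccl7 went from 219 to 591 CPM, 2.70-fold (2.26–3.23), beside 1.95-fold (1.76–2.15). Cxcl1 went from 40.6 to 119 CPM. Without Mgl2, Flt3 or Ccr7 barcodes the ratios of day 2 to day 1 were 0.962 for Ccl7 and 0.914 for Cxcl1, so that neither was higher at day 2. Vsig4 went from 44.8 to 168 CPM, 3.75-fold (2.59–5.53) beside 1.15-fold (1.06–1.25).

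In members, 4 of 13 chemokine genes were at least 2-fold higher at day 2 and 1 at least 2-fold lower (median log2 ratio 0.89), and 6 of 12 cell cycle genes at least 2-fold lower with 0 higher (median -1.15). Stmn1 went from 148 to 50.9 CPM in members, 2.92-fold (1.95–4.52) lower (a ratio of 0.805 without Mgl2, Flt3 or Ccr7 barcodes), and from 27.5 to 45.4 CPM in MHC class II-low macrophages. Ccl8, an interstitial macrophage chemokine, was 2.52-fold (1.94–3.32) lower at day 2 and Ear2 2.52-fold (1.67–3.92) lower. Without Mgl2, Flt3 or Ccr7 barcodes they were 5.23-fold and 4.38-fold lower. Ccl8 was only 1.37-fold lower with an MHC class II limit of 0.5%. Ear2 was 1.54-fold lower with at least 3 C1qa UMIs and 1.37-fold lower with the rule applied after thinning. Ltb4r1, a leukotriene B4 receptor, was 2.55-fold (1.46–4.71) lower, although the Ltb4r1 ratio was 2.06 without Mgl2, Flt3 or Ccr7 barcodes. Scand1, Ubl4a, Gspt1 and Klf3 were 2.98-fold, 2.99-fold, 2.60-fold and 2.40-fold lower. Single barcodes made some day 2 values. All 90 Ccl22 UMIs, 93.5% of Ccl5 UMIs and 89.7% of Ccl17 UMIs of day 2 members lay in 1 barcode each. Without it, the Ccl17 ratio of day 2 to day 1 was 1.38 in place of 9.25.

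Spp1 (osteopontin), a secreted matrix protein, was at 80.1, 440 and 1061 CPM in members at days 1, 2 and 5. The ratio of day 2 to day 1 was 5.50 (4.23–7.21), or 4.43 without the barcode with most Spp1 UMIs, which held 31.1% of those at day 2. In MHC class II-low macrophages Spp1 was at 205, 94.5 and 2456 CPM. Both groups were highest at day 5, with ratios of day 5 to day 1 of 13.3 (10.5–17.0) and 12 (10.9–13.2).

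At day 5, members had more monocyte and inflammatory genes and less of the interstitial macrophage genes than at day 1. In members, 461 of 7429 genes (6.21%) were at least 2-fold higher and 419 (5.64%) at least 2-fold lower, against 538 (6.93%) and 433 (5.58%) of 7758 in MHC class II-low macrophages. Without Mgl2, Flt3 or Ccr7 barcodes the counts in members were 769 and 848. Between days 5 and 2, 660 of 7465 genes (8.84%) were at least 2-fold higher in members and 473 (6.34%) at least 2-fold lower, against 622 (8.08%) and 406 (5.27%) of 7702 in MHC class II-low macrophages. Of 11 monocyte genes measured, 7 were at least 2-fold higher at day 5 than at day 1 in members and 1 at least 2-fold lower (median log2 ratio 2.39), beside 8 and 0 of 11 in MHC class II-low macrophages (median 2.85).

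Ifitm1, an interferon-induced membrane protein gene also high in the Cd209a barcodes, was counted once in members at day 1 and was at 316 CPM at day 5, a ratio of 296 (52.8–11737). Without Mgl2, Flt3 or Ccr7 barcodes the Ifitm1 ratio was 20.9. Fn1 (fibronectin) went from 279 to 560 CPM, 2.01-fold (1.73–2.33), beside 3.92-fold (3.53–4.35) in MHC class II-low macrophages. Ly6c2, the surface marker of classical monocytes, had 4 UMIs in members at day 1 and 30 at day 5. Ms4a4c, Vcan, Hp, F10 and Chil3 were the other monocyte genes at least 2-fold higher. Plac8 was limited to 1 UMI by the rule on every day, and members holding 1 Plac8 UMI numbered 2, 0 and 21.

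Il1b was 7.02-fold (5.94–8.34) higher in members at day 5 than at day 1, beside 20.4-fold (16–26.4) in MHC class II-low macrophages, where it began lower. The members of day 5 included more barcodes with 1 to 3 C1qa UMIs, 75 of 253 against 46 of 290 at day 1, and Il1b in these was at 2326 and 295 CPM at days 5 and 1. In members with at least 16 C1qa UMIs Il1b was at 224 and 141 CPM. Of 8 inflammatory mediators measured, 4 were at least 2-fold higher in members and 0 lower (median log2 ratio 1.25). Osm (oncostatin M) was 4.16-fold (2.73–6.55) and Timp1, an inhibitor of metalloproteinases, 9.24-fold (4.98–19.0) higher. Thbs1 (thrombospondin 1) was at 117 CPM at day 5 with 0 UMIs at day 1, a ratio of 36.5. Il1r2, the decoy receptor of interleukin-1, was at 53.3 CPM with 0 UMIs at day 1, a ratio of 16.7. Both ratios put 3 counts in place of the 0 in day 1 members and are not lower bounds. For Il1r2 the ratio was 3.21 with at least 3 C1qa UMIs required and 2.82 without Mgl2, Flt3 or Ccr7 barcodes. Gpr84, a fatty acid receptor, had 2 UMIs at day 1 and a ratio of 30.7 (8.18–258). Ccl17, a chemokine that draws T cells, was at 20.3 and 883 CPM at days 1 and 5, with 41.8% of its day 5 UMIs in 1 barcode, and at 518 CPM without it. The Ccl17 ratio was 43.6, or 6.12 without Mgl2, Flt3 or Ccr7 barcodes. Dmkn (dermokine, 3 UMIs at day 1) and Rnase2a (a ribonuclease with near-identical copies) had ratios of 32.7 (10.9–161) and 22.8 (9.52–71.4).

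**Figure D5:**
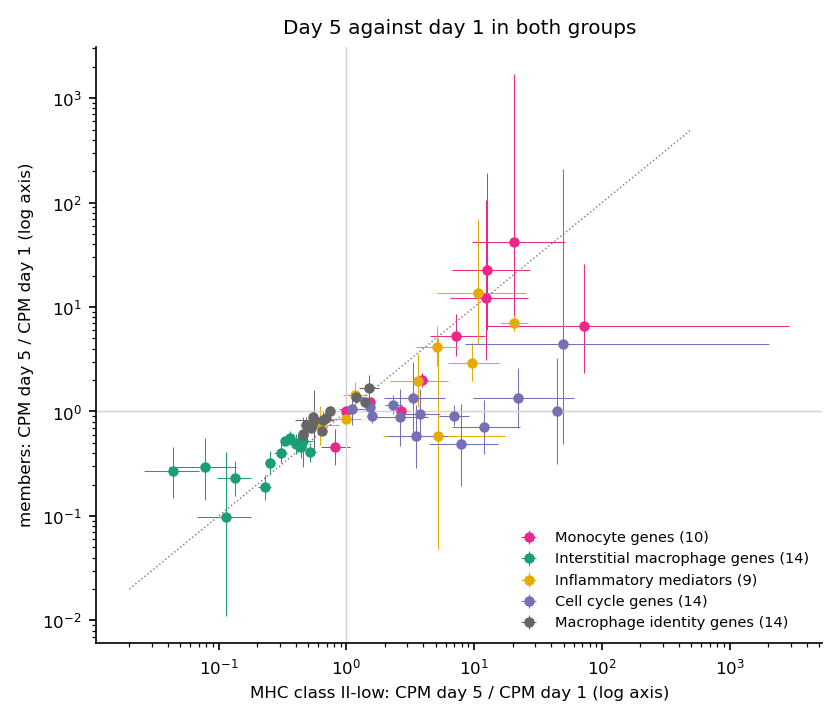
Ratio of CPM at day 5 to CPM at day 1 in MHC class II-low macrophages (x axis) and in members (y axis), both log scales, for genes of 5 lists with at least 1 UMI in each group and day, with exact 95% counting intervals. Monocyte genes are above 1 in both groups for most members of the list, interstitial genes are below 1 in both, and cell cycle genes are above 1 mainly in MHC class II-low macrophages.

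Of 14 interstitial macrophage genes, 11 were at least 2-fold lower in members at day 5 than at day 1 and 0 higher (median log2 ratio -1.30), beside 13 and 0 of 14 in MHC class II-low macrophages (median -1.66). Ccl24, an eosinophil chemokine, went from 324 to 60.8 CPM, 5.32-fold (4.06–7.06) lower, and Lyve1 was 3.09-fold (2.38–4.05) lower. Cd209d and Cd209f, lectin genes of interstitial macrophages with near relatives, were 4.34-fold (2.99–6.45) and 3.74-fold (2.17–6.74) lower. Cxcl13, a B cell chemokine, went from 515 to 62.7 CPM, 8.21-fold (6.35–10.8) lower, or 14.8-fold without the top barcode of each day, which held 24.7% of its UMIs at day 1 and 58.2% at day 5. Sult1a1, a sulfotransferase, was 3.59-fold (2.32–5.70) lower and Lyz1, a lysozyme gene with the near copy Lyz2, 3.08-fold (2.86–3.32) lower. Mmp12 was 3.92-fold (2.59–6.10) lower, but 1.19-fold without the top barcodes.

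Of 10 MHC class II accessory genes measured, 0 were at least 2-fold higher in members at day 5 than at day 1 and 1, H2-Ob, at least 2-fold lower (median log2 ratio 0.049). H2-DMb1 had a ratio of 0.775 (0.699–0.859) and Ccr2 of 1.01 (0.904–1.14) in members, while Ccr2 in MHC class II-low macrophages had 2.66 (2.25–3.15). Mgl2 was lower in both groups, with ratios of 0.399 (0.349–0.455) in members and 0.274 (0.222–0.336) in MHC class II-low macrophages. Of cell cycle genes in members, 0 of 12 were at least 2-fold higher and 1 at least 2-fold lower at day 5, while in MHC class II-low macrophages 11 of 14 were at least 2-fold higher. Top2a, a DNA topoisomerase of dividing cells, had a ratio of 1.34 (0.7–2.63) in members and 21.9 (9.76–60.9) in MHC class II-low macrophages, where it had only 6 UMIs at day 1.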

How the data were processed

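RNA of sorted synovial cells was read from the 3' end (Chromium Single Cell kit, v2), as the labels' protocols state. Raw UMI counts make up the deposited files, by gene and barcode, and a gene enters a file when 5 or more barcodes hold it. Per the submitters' processing notes, the tools were Seurat 2.3, Cell Ranger 2.1.0 and R 3.5.2, and the build was mm10, with their roles not given in the sources used here. The 4 libraries held 7115082, 18426363, 12218230 and 14995823 counts at days 0, 1, 2 and 5.

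UMIs were summed over the barcodes of a group and day and given as CPM with exact Poisson 95% intervals. For ratios the interval is the exact conditional Poisson one, for shares that of Clopper and Pearson. In ratios, 3 counts took the place of a 0. Genes needed at least 10 CPM in either group to count as measured. Between days, genes were named for day 5 against day 1 and for day 2 against day 1. They needed at least 50 CPM on either day and were ranked on that ratio alone with 5 CPM added, the first 8 each way. Within days, genes needed at least 50 CPM in 1 group on every day and the same direction on all 3 days. They were ranked by the smallest of the 3 ratios with 5 CPM added. The first 12 each way were named against MHC class II-low macrophages and the first 6 each way against Cd209a barcodes. A result that met this rule is not reported here. Further genes come from lists by role. Genes of the rule were left out. The ranking also left out TdTomato and sex-linked, mitochondrial, ribosomal protein, haemoglobin and predicted genes. Members and lists were chosen with earlier results of these data known. No doublet caller was run here, so doublets may remain, and an alternative leaves out the 5% of barcodes with most UMIs. For shares of barcodes with a UMI, each was thinned to 1500 UMIs, which left out 36, 26 and 0 members. The calculations were tested on simulated data. Software was SciPy 1.17.1, NumPy 2.4.6, matplotlib 3.10.9 and pandas 2.3.3 under Python 3.11.15.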

Additional observations from a re-analysis of the deposited data

Results flagged for a closer look

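The proliferation gene Mki67 had a ratio of day 2 to day 1 of 0.342 (0.102–0.915) in members and 2.22 (1.17–4.29) in MHC class II-low macrophages, opposite directions in the 2 groups. It rests on 24 and 5 UMIs in members. The Spp1 ratio of day 2 to day 1 was 5.50 (4.23–7.21) in members and 0.461 (0.376–0.562) in MHC class II-low macrophages. Dcn, a fibroblast matrix gene, had a ratio of day 5 to day 1 of 0.424 (0.213–0.810) in members and 2.12 (1.58–2.87) in MHC class II-low macrophages, where 84.4% of its day 5 UMIs lay in 1 barcode. With 1 library per day, none of these differences was tested.

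The day 0 library, which enters no comparison, held 830 of 3715 barcodes (22.3%, 21.0–23.7) that met the same conditions. Their median depth was 1047 UMIs and their median MHC class II share 2.14%. At that depth the clauses on single UMIs of Cd209a, Sparc and Plac8 are met more easily, so this share is not comparable with those of the other days.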

How the results depend on the processing

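No paired analysis was possible because the results come from no test: each day had 1 library, and groups were compared within it. Of 1820 single-gene ratios recomputed under the alternatives, 1554 stayed within their counting interval, 253 moved outside it and 13 reversed. Of 720 list medians, 676 stayed within 1.5-fold, 41 moved and 3 reversed. Requiring an interval that leaves out 1, and leaving out the top barcode of a gene, were chosen after seeing the data. The cause of each change below was not tested, unless the alternative's construction gives it.

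The share of members was 5.54% at day 1 and 5.78% at day 5 with at least 3 C1qa UMIs, 7.17%, 6.87% and 9.34% at days 1, 2 and 5 with an MHC class II limit of 0.5%, 5.30%, 4.89% and 6.03% with 2%, 2.24%, 1.69% and 4.85% without Mgl2, Flt3 or Ccr7 barcodes, 5.00% at day 1 and 4.44% at day 2 with at least 1000 genes, and 8.75%, 8.25% and 9.15% with the rule applied after thinning, which loosens clauses on single UMIs.

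Single-gene reversals against MHC class II-low macrophages were Acp5 7.83, Ctsk 3.01 and Mmp9 116 at day 2 with the 0.5% limit, Mmp9 4.24 at day 1 under a mitochondrial limit of 5%, Mmp9 1.43 at day 2 without the 5% of barcodes with most UMIs, and, by construction, Mgl2 0.0474, 0.101 and 0.0812 without Mgl2, Flt3 or Ccr7 barcodes. For day 2 against day 1 they were Ccl17 0.797 with the 2% limit and 0.276 after thinning, and without Mgl2, Flt3 or Ccr7 barcodes Ccl7 0.962, Cxcl1 0.914 and Ltb4r1 2.06.

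Without Mgl2, Flt3 or Ccr7 barcodes, 458 and 680 genes were higher than in MHC class II-low macrophages at days 1 and 2 and 948 and 1104 lower, and between days (2 against 1, 5 against 1, 5 against 2) 1067, 769 and 998 were higher and 885, 848 and 1061 lower. With no CPM minimum, 1708, 1814 and 1115 were higher and 1114, 1185 and 1093 lower than in MHC class II-low macrophages at days 1, 2 and 5, and between days 1294, 1131 and 1059 higher and 858, 1298 and 1404 lower. With intervals that leave out 1, 202 were higher and 371 lower at day 2, and between days 120, 299 and 331 higher and 139, 274 and 253 lower. With the mean of each barcode's CPM, 486 were higher at day 2 than at day 1. After thinning, 375 and 450 were lower than in MHC class II-low macrophages at days 1 and 2, and between days 145, 302 and 417 were higher and 206, 265 and 251 lower.

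The dendritic cell list holds Mgl2, Flt3 and Ccr7, so leaving out their barcodes sets part of its change by construction. List medians (log2, members against MHC class II-low macrophages) moved as follows. Without Mgl2, Flt3 or Ccr7 barcodes, dendritic cell genes were at 1.12, 0.20 and 0.45 at days 1, 2 and 5, inflammatory mediators at 1.54 at day 1, interstitial genes at -2.14 and -1.93 at days 1 and 5, MHC class II accessory genes at 0.058 at day 1, cell cycle genes at -1.58 at day 5 and osteoclast genes at -2.60 at day 2. With at least 3 C1qa UMIs, accessory genes reversed to -0.10 at day 1, osteoclast genes were at -1.22 and -1.61 at days 1 and 5, and at day 5 dendritic cell genes were at 0.99 and cell cycle genes at -1.48. With the 0.5% limit, at day 2, cell cycle genes were at 1.05, accessory genes at 0.051, matrix genes at 0.99, and osteoclast genes reversed to 2.90. After thinning, at day 1, accessory genes were at 0.35, matrix genes at 0.58 and osteoclast genes at -1.52, at day 2, cell cycle genes at 0.94, interstitial genes at -0.63, matrix genes at -0.84 and osteoclast genes at -2.15, and at day 5, costimulation genes at -0.20 and lining genes at -1.06. With at least 1000 genes, dendritic cell genes were at 2.21 at day 2 and osteoclast genes at -4.48 and -2.82 at days 1 and 2. With a mitochondrial limit of 5%, dendritic cell genes were at 2.08 at day 2 and, at day 1, matrix genes at 0.70 and osteoclast genes at -1.32. With the mean of each barcode's CPM, matrix genes were at 0.41 and osteoclast genes at -1.91 at day 1, accessory genes at 0.11 and osteoclast genes at -1.52 at day 2, and interferon gamma-type genes at -0.039 at day 5. With no CPM minimum, accessory genes reversed to -0.12 at day 1 and were at 0.97 at day 5, and osteoclast genes were at -2.58 at day 2. Without the 5% of barcodes with most UMIs, osteoclast genes were at -1.94, -2.27 and -1.67.

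The H2-DMa, H2-DMb1, Ccr2 and interstitial gene differences rest on many UMIs. For H2-DMa and H2-DMb1 the rule sets part of the direction. Ciita, H2-Ob, Flt3 and H2-Oa, at under 25 UMIs per day in members, are limited by depth.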
